A study of Mus musculus with 6 samples.

Results

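Genes of mitosis and the G2-M transition were followed in mouse livers injured by a diet containing DDC (3,5-diethoxycarbonyl-1,4-dihydrocollidine, a compound that causes bile duct injury and scarring), with or without injected recombinant human cytoglobin (rhCYGB). The list has 48 members, chosen by their function in cell division, and all 48 were matched by symbol among the 24532 genes of the deposited table. Wild-type C57BL/6 mice formed both groups (the labels used here give no age), and every mouse ate 0.1% DDC for 4 weeks. The rhCYGB group (3 livers) received 2 mg/kg, 2 times a week, during the final 2 weeks, and the vehicle group (3 livers) received saline on the same schedule. Livers were collected 2 days after the last dose, and mRNA was sequenced from each in 1 library. Livers without DDC are not analysed here, so both groups are from DDC-fed mice. Nothing in the labels says how the mice were housed or paired, and p-values measure only the spread between these samples.

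Most hepatocytes of an adult liver rest outside the cell cycle and return to it after injury, and bile duct, stromal and immune cells also divide in injured liver. On entry to mitosis, cyclin-dependent kinase 1 pairs with A- and B-type cyclins, spindle motors and kinetochore proteins align the chromosomes, and the anaphase-promoting complex (APC/C) then destroys securin and the cyclins. Many of these genes are transcribed together late in the cycle. Their promoters often carry the cell cycle homology region, with the core TTTGAA, which is bound by complexes built on MuvB, and CCAAT boxes, which are bound by NF-Y.

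These promoter sequences are shown because they carry what the members share beyond the measured levels. Of the 48 members 40 had a window in RefSeq's promoter table (build GRCm38.p6, the assembly also called mm10), from 250 bases before the start site to 50 after it. TTTGAA or its reverse complement TTCAAA was present in 30 of these 40 windows (75%), against 12.1% of the windows of 11402 genes tested. The 30 include Kif2c, whose window is set 3852 bases from the start site of its most abundant transcript. Within the last 100 bases, close to the start site, it was present in 27 of 40 (67.5%), against 2.95% of genes tested. CCAAT or its reverse complement ATTGG was present in 30 of 40 (75%), against 38.5%, and both motifs in 27 of 40 (67.5%), against 4.91%. Occurrences were read on both strands and overlaps between motifs were allowed. Each is a match of letters, not a measured binding site. The windows of Ccnb2 (chr9:70421505-70421804, minus strand), Cdc20 (chr4:118437294-118437593, minus strand), Cdk1 (chr10:69352863-69353162, minus strand) and Top2a (chr11:99024140-99024439, minus strand) hold both motifs. The window of Pttg1 (chr11:43425932-43426231, minus strand) holds neither, but it does not reach the start site of the main Pttg1 transcript. Birc5, Mad2l1, Melk, Ncaph, Nuf2 and Nusap1 also lack both motifs in their windows, and their log2 fold changes of rhCYGB over vehicle, between -1.42 and -0.32, were negative like those of members with the motifs. The Pttg1 window is set on the start site of the 1690-base transcript. That site lies 267 bases downstream of the start of the deposited 740-base Pttg1 transcript, which held most of the gene's counts. The start site used for the Mad2l1 window lies 247 bases before that of its deposited transcript. For Pttg1 and Mad2l1 the missing motifs therefore do not describe the sequence around the start sites of those deposited transcripts. Capitals mark each match to either motif on either strand.
Ccnb2: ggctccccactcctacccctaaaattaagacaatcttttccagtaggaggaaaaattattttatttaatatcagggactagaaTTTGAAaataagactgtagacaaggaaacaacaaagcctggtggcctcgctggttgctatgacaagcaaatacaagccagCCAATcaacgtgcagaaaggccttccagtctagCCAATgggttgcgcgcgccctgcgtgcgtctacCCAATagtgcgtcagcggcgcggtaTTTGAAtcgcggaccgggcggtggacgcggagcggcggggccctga
Cdc20: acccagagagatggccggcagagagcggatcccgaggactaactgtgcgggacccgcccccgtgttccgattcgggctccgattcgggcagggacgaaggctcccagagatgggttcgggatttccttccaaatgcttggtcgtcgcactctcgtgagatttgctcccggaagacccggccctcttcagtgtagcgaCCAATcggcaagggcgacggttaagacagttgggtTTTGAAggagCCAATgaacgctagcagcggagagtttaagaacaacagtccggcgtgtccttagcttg
Cdk1: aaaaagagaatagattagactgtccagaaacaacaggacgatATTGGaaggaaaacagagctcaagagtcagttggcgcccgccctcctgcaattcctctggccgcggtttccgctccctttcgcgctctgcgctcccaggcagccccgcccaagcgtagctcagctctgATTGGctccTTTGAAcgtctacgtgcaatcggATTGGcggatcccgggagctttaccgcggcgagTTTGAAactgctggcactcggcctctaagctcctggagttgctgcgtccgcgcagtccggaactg
Top2a: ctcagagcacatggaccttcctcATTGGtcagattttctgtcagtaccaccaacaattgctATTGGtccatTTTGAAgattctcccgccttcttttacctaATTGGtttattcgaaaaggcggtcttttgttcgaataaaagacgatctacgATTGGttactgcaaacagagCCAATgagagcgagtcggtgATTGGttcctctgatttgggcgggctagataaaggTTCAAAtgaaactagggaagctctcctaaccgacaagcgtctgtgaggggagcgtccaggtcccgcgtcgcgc
Pttg1: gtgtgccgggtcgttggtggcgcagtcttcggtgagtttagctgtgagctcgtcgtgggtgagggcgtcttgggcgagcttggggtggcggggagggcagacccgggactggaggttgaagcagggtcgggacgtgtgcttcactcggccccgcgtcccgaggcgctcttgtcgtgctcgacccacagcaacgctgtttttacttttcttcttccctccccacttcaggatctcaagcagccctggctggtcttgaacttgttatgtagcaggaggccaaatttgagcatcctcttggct
With the start site as position 0, matches to TTTGAA on either strand began at -167 and 4 in Ccnb2, at -18 in Cdc20, at -71 and -15 in Cdk1, and at -179 and -23 in Top2a. All 4 windows thus hold a match close to the start site. The Cdc20 window held 2 CCAAT matches, those of Ccnb2 and Cdk1 held 3 each, and that of Top2a held 6. Of the 8 members not matched, Aurkb, Ccna2, Dlgap5, Foxm1, Kif20a, Pbk, Smc4 and Tpx2, only the names are given.

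The libraries held between 58422095 and 72431373 estimated counts, and 14415 genes were tested. CPM is a count scaled to its library's total with trimmed-mean (TMM) factors, and TPM, rescaled from the deposited FPKM, is used where levels of different genes are compared, since it is per length. The scaling factors ran from 0.63 to 1.18 with rhCYGB and from 1.07 to 1.45 with vehicle. The libraries did not part by group: on the first principal component (67.6% of variance) rhCYGB replicate 1 lay at -52.7, within the vehicle range of -81.3 to -24.5, and rhCYGB replicates 2 and 3 lay at 61.6 and 129.8. The deviation of log2 CPM per doubling of transcript length was 0.24, -0.35 and -0.33 in rhCYGB replicates 1 to 3 and 0.40, -0.02 and 0.06 in vehicle replicates 1 to 3. Rn45s, a ribosomal RNA precursor, took 1.74% of counts in rhCYGB replicate 3 and 0.225% to 0.443% in the other 5 libraries. The part of length and of Rn45s in the results was not tested, apart from the removal of the length trend given below.

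As a group, the members had lower values with rhCYGB, and rhCYGB replicate 3 was by far the lowest library. In edgeR 47 of 48 members had a negative log2 fold change of rhCYGB over vehicle, against 53.2% of all genes tested, and their median was -0.94, against -0.06 for all genes. No member passed the threshold, an adjusted p of 0.05 by edgeR, and neither did any other gene (0% of genes tested). Over all genes, edgeR gave 873 higher and 297 lower at an unadjusted p under 0.05, and DESeq2 called 65 at an adjusted p under 0.05, with no adjusted p for any member. At an unadjusted p under 0.05 the count was 0 of 48 members by edgeR, with 2.06% of all genes lower at that p, and 6 of 48 by DESeq2, all lower, where 2.83% of all genes were lower. The smallest unadjusted edgeR p among the members was 0.0810. In CPM all rhCYGB libraries lay below all vehicle libraries for 13 of 48 members, against 7.38% of genes tested, and 0 members lay wholly above. In TPM this held for 7 of 48 members, against 12.7% of genes tested. Of the 13, only Bub1b and Kif4 also stayed apart in TPM. Below, overlap of groups is read in CPM unless TPM is named. In bulk liver, fewer dividing cells and less RNA per dividing cell cannot be told apart.

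Expressed as the median over the 48 members of log2 CPM minus the vehicle mean, the libraries stood at -0.35, -0.62 and -3.19 in rhCYGB replicates 1 to 3, and at 0.11, -0.40 and 0.28 in vehicle replicates 1 to 3. The same medians over all genes tested were 0.01, -0.07 and -0.13 with rhCYGB and 0.01, -0.0033 and 0.00047 with vehicle. Replicates 1 and 2 of rhCYGB thus lay close to vehicle replicate 2, and replicate 3 lay far below every other library. It was the lowest library for 47 of 48 members, and 43 of 48 were more than 2 log2 units under the vehicle mean there, against 9.96% of genes tested. The summed CPM of the 48 members was 485, 489 and 105 with rhCYGB and 604, 499.9 and 759 with vehicle. Against all 3 vehicle libraries, rhCYGB replicate 1 was lower for 18 of 48 members (20.5% of genes tested), replicate 2 for 30 (42.2%) and replicate 3 for 47 (45.5%).

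**Figure D1:**
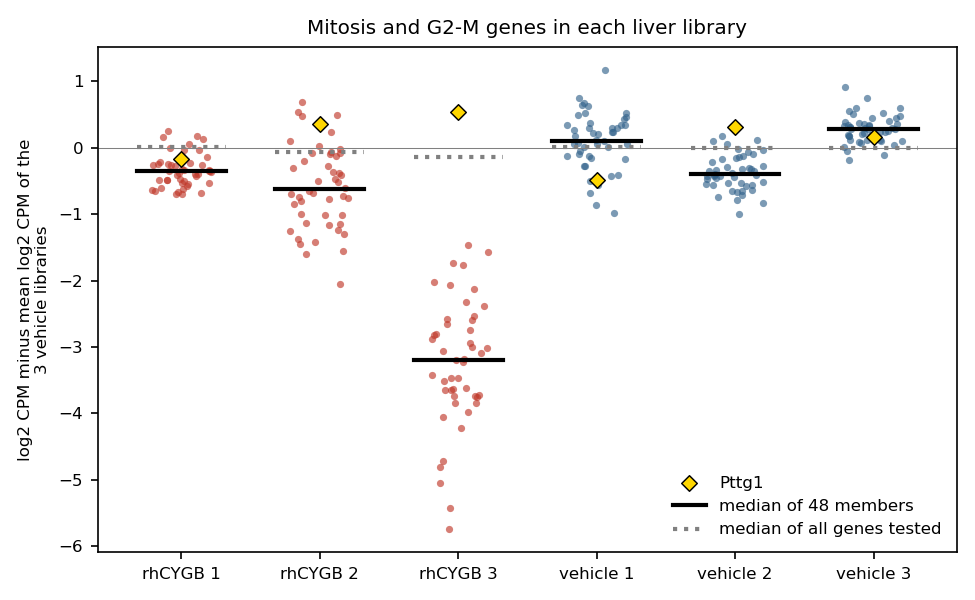
Log2 CPM of each of the 48 members minus the mean log2 CPM of the 3 vehicle libraries (y axis), by library (x axis, rhCYGB left, vehicle right); black bars are member medians, dotted bars medians of all genes tested, and diamonds mark Pttg1. The members of rhCYGB replicate 3 lie around a median of -3.19, below the other 5 libraries, while Pttg1 does not.

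The kinases and cyclins that drive entry into mitosis form the first group of 10. All 10 had negative log2 fold changes, with a median of -0.93, and none passed the edgeR threshold. Cdca3 is part of a ubiquitin ligase that degrades the mitotic inhibitor Wee1. Its mean over all libraries, 45.61 TPM, was the highest of the whole list, barely above the 45.55 TPM of Pttg1. With rhCYGB alone Pttg1 was higher, at 38.3 TPM. Cdca3 was at 32.1 ± 24.4 TPM with rhCYGB and 59.1 ± 25.2 TPM with vehicle (SD, n = 3 each). In CPM it was at 32.5, 62.6 and 6.45 with rhCYGB and at 21.3, 41.5 and 65.3 with vehicle, so rhCYGB replicates 1 and 2 fell inside the vehicle range. Its log2 fold change was -0.33 (SE 0.75, edgeR adjusted p = 0.820). Ccnb2, a B-type cyclin, was at 22.1, 31.2 and 1.75 CPM with rhCYGB and at 11.3, 23.1 and 42.0 CPM with vehicle. The groups overlapped, and its log2 fold change was -0.47 (SE 0.90, edgeR adjusted p = 0.788). Without rhCYGB replicate 3 the log2 fold changes of Cdca3 and Ccnb2 were 0.16 and 0.06.

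Ccnb1, the other B-type cyclin listed, was at 13.0, 15.6 and 1.301 CPM with rhCYGB and at 11.9, 14.95 and 24.7 CPM with vehicle. Cdk1, the kinase that both B cyclins activate, was at 17.9, 15.9 and 2.92 CPM with rhCYGB and at 21.7, 16.4 and 25.2 CPM with vehicle. Replicate 3 was the low rhCYGB library for each, and the groups of both genes overlapped. Ccna2, cyclin A2, did not overlap between groups, at 13.5, 10.4 and 2.23 CPM with rhCYGB and 18.1, 14.4 and 22.5 CPM with vehicle. The same held for the spindle pole kinase gene Aurka, at 8.33, 6.55 and 1.35 CPM with rhCYGB and 13.4, 9.66 and 12.8 CPM with vehicle. Melk and Pbk, a pair of further mitotic kinases, also did not overlap. Plk1, a kinase of mitotic entry and spindle assembly, was at 8.94, 3.90 and 0.558 CPM with rhCYGB and at 7.10, 6.80 and 10.2 CPM with vehicle. Foxm1, a transcription factor of late cell cycle genes, was at 6.19, 4.32 and 0.478 CPM with rhCYGB and at 8.53, 5.43 and 8.33 CPM with vehicle. Both overlapped through rhCYGB replicate 1.

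The kinetochore and spindle assembly checkpoint genes delay anaphase until every chromosome is attached. All 10 had negative log2 fold changes, median -0.90, and none passed. Bub1, a checkpoint kinase, was at 2.61, 1.76 and 0.239 CPM with rhCYGB and at 4.97, 2.89 and 5.22 CPM with vehicle. In CPM every rhCYGB library lay below every vehicle library, with a log2 fold change of -1.49 (SE 0.74, edgeR adjusted p = 0.523). In TPM the groups overlapped, with rhCYGB replicate 1 at 1.29 and vehicle replicate 2 at 1.18. Bub1b, its partner in the checkpoint, was at 4.41, 3.54 and 0.505 CPM with rhCYGB and at 8.23, 5.45 and 8.08 CPM with vehicle. Nuf2, a subunit of the NDC80 complex that grips microtubules, was at 5.11, 2.99 and 0.212 CPM with rhCYGB and at 6.15, 5.55 and 8.97 CPM with vehicle. These 3 genes were the members of this group without overlap. Cenpa, the histone H3 variant of centromeres, was at 10.96, 21.4 and 3.51 CPM with rhCYGB and at 9.55, 17.4 and 21.8 CPM with vehicle, with a log2 fold change of -0.44 (SE 0.62, edgeR adjusted p = 0.724). Mad2l1, the checkpoint protein that binds Cdc20, was at 18.2, 15.8 and 2.87 CPM with rhCYGB and at 15.7, 12.7 and 23.2 CPM with vehicle, with a log2 fold change of -0.49 (SE 0.62, edgeR adjusted p = 0.695). Both overlapped widely and differed from vehicle mainly in rhCYGB replicate 3. The other NDC80 complex genes Ndc80 and Spc25, the checkpoint kinase gene Ttk and the large kinetochore protein genes Cenpe and Cenpf had log2 fold changes between -1.04 and -0.61, and the groups of each overlapped.

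The genes of anaphase onset held the exception, Pttg1, which was one in CPM but not in TPM. Cdc20, the activator of the APC/C, was at 17.4, 18.9 and 2.90 CPM with rhCYGB and at 17.2, 26.2 and 31.8 CPM with vehicle. Espl1, the protease separase that cuts cohesin, was at 2.28, 1.19 and 0.239 CPM with rhCYGB and at 4.51, 1.603 and 3.24 CPM with vehicle. Ube2c, the ubiquitin-conjugating enzyme of the APC/C, was at 11.4, 16.8 and 5.95 CPM with rhCYGB and at 13.7, 16.3 and 20.1 CPM with vehicle, with a log2 fold change of -0.55 (SE 0.40, edgeR adjusted p = 0.564). Its vehicle mean was 2.81-fold above rhCYGB replicate 3, the smallest such gap among the members that were lowest there. Pttg1, securin, which holds separase inactive until anaphase, was at 17.1, 24.6 and 27.97 CPM with rhCYGB and at 13.8, 23.9 and 21.6 CPM with vehicle. In CPM its highest library was rhCYGB replicate 3, where the other 47 members were lowest, and the groups overlapped. It rested on 1053 estimated counts there, its lowest count of any library. In TPM it was at 46.97, 34.6 and 33.2 with rhCYGB and at 48.2, 54.95 and 55.3 with vehicle. On that scale rhCYGB replicate 3 was its lowest library, and all rhCYGB libraries lay below all vehicle libraries. Its log2 fold change was 0.23 (SE 0.31, edgeR adjusted p = 0.710), but its direction depended on scaling, at -0.47 on log2(TPM + 1), -0.34 with library totals and -0.37 with the length trend removed. At 779 bases its mean transcript length was the shortest in the list. The 740-base transcript held most of its counts, 1179, 1258 and 974 with rhCYGB and 1002, 1564 and 1374 with vehicle.

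The chromosomal passenger complex, which corrects wrong attachments and later guides cytokinesis, was represented by Aurkb, its kinase, Birc5 (survivin) and Cdca8 (borealin). Birc5 was at 11.95, 22.4 and 4.57 CPM with rhCYGB and at 10.4, 14.95 and 23.2 CPM with vehicle, with a log2 fold change of -0.32 (SE 0.57, edgeR adjusted p = 0.777) that became 0.09 without rhCYGB replicate 3. Cdca8 was at 5.77, 8.39 and 2.58 CPM with rhCYGB and at 7.89, 8.48 and 10.4 CPM with vehicle, with a log2 fold change of -0.68 (SE 0.44, edgeR adjusted p = 0.541). Aurkb was at 4.16, 4.88 and 1.27 CPM with rhCYGB and at 8.21, 4.78 and 6.90 CPM with vehicle. All 3 overlapped, and their vehicle means were between 3.46- and 5.20-fold above rhCYGB replicate 3.

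**Figure D2:**
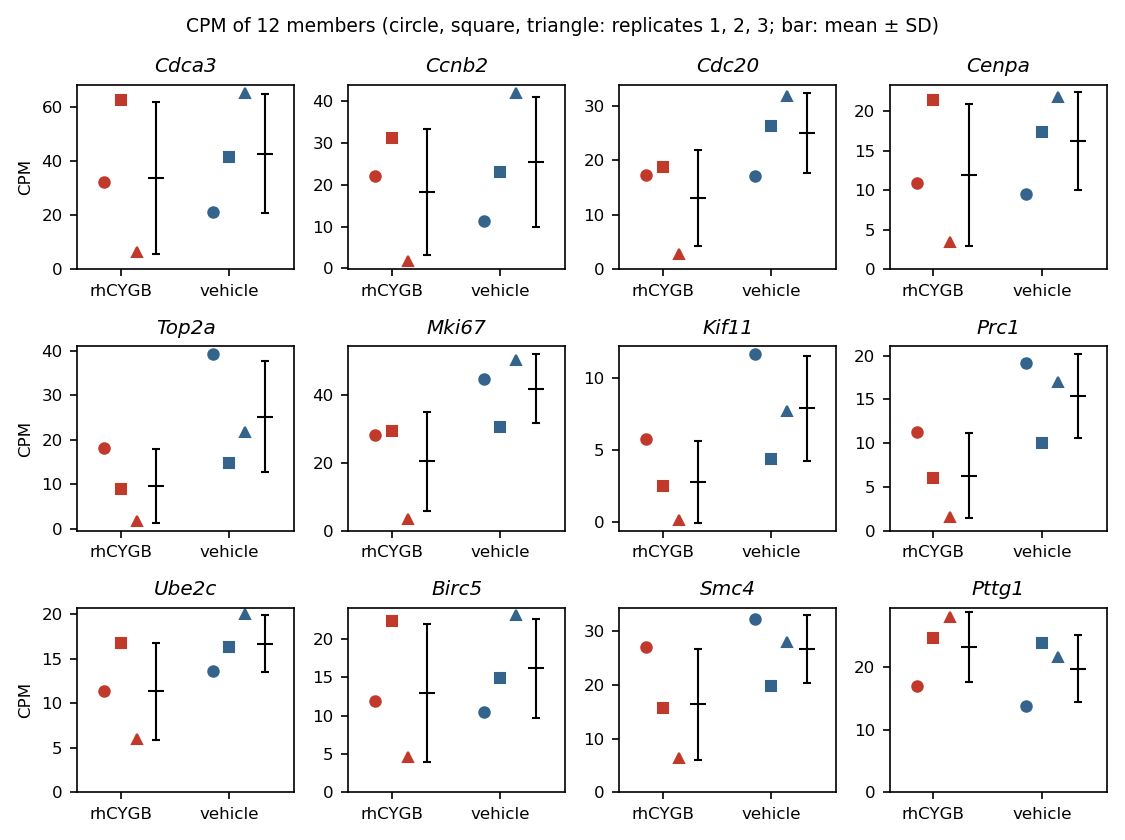
CPM of 12 members (y axis, each panel on its own scale) in rhCYGB and vehicle livers; symbols are replicates 1, 2 and 3 and bars are mean ± SD (n = 3). Triangles, replicate 3, are lowest in the rhCYGB group in 11 panels and highest in the panel of Pttg1.

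Motors and microtubule factors of the spindle made up 11 members, all with negative log2 fold changes, median -1.08, and none past the threshold. Kif20a, a kinesin of the central spindle, was at 17.6, 14.9 and 1.12 CPM with rhCYGB and at 15.9, 19.3 and 31.0 CPM with vehicle, with a log2 fold change of -0.97 (SE 0.83, edgeR adjusted p = 0.596). Prc1, which bundles the microtubules of the central spindle, was at 11.3, 6.01 and 1.59 CPM with rhCYGB and at 19.2, 10.0 and 17.0 CPM with vehicle, with a log2 fold change of -1.29 (SE 0.64, edgeR adjusted p = 0.523). Both overlapped through rhCYGB replicate 1. Kif11, the motor that pushes the spindle poles apart, was at 5.77, 2.47 and 0.106 CPM with rhCYGB and at 11.6, 4.37 and 7.67 CPM with vehicle. The value of rhCYGB replicate 3 rested on 4 estimated counts, 74.3-fold below the vehicle mean and the widest gap in the list. Kif23, a motor of the cytokinetic midzone, also had 4 estimated counts there. Kif4, a chromosome-arm motor, and Tpx2, which activates Aurora A on the spindle, were the members of this group whose groups did not overlap. Kif4 was at 4.01, 3.73 and 0.212 CPM with rhCYGB and at 6.71, 5.11 and 7.56 CPM with vehicle. Tpx2 was at 12.9, 10.6 and 1.59 CPM with rhCYGB and at 18.0, 14.002 and 22.7 CPM with vehicle. The microtubule depolymerase gene Kif2c and the microtubule-binding factor genes Nusap1, Hmmr, Aspm and Dlgap5 had log2 fold changes between -1.24 and -0.51.

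Genes of chromosome structure gave 7 negative log2 fold changes of 7, median -1.11, and none passed. Top2a, the topoisomerase that untangles sister chromatids, was at 18.2, 8.96 and 1.86 CPM with rhCYGB and at 39.2, 14.9 and 21.7 CPM with vehicle, with a log2 fold change of -1.38 (SE 0.75, edgeR adjusted p = 0.523). The groups overlapped because vehicle replicate 2 lay under rhCYGB replicate 1. Mki67, the Ki-67 proliferation marker that coats mitotic chromosomes, was at 28.4, 29.5 and 3.59 CPM with rhCYGB and at 44.6, 30.7 and 50.3 CPM with vehicle, so the groups did not overlap in CPM. In TPM they did, with rhCYGB replicate 1 at 6.08 and vehicle replicate 2 at 5.40. Smc4 and Smc2 are the paired ATPase subunits of condensin, which compacts chromosomes. Smc4 was at 27.1, 15.8 and 6.45 CPM with rhCYGB and at 32.3, 19.7 and 28.1 CPM with vehicle, with a log2 fold change of -0.70 (SE 0.50, edgeR adjusted p = 0.562). Smc2 was at 6.86, 1.95 and 0.159 CPM with rhCYGB and at 18.4, 4.09 and 7.20 CPM with vehicle, with a log2 fold change of -1.72, the most negative of the list, an SE of 1.10 and 6 estimated counts in rhCYGB replicate 3. Ncapg, a condensin I subunit with the smallest p of the list, was at 4.51, 4.27 and 1.12 CPM with rhCYGB and at 9.56, 4.95 and 6.96 CPM with vehicle. Its groups did not overlap, and its log2 fold change was -1.11 (SE 0.55, edgeR adjusted p = 0.523). Ncaph and Ncapd2, further condensin subunits, had log2 fold changes of -1.24 and -0.63, and the groups of Ncaph did not overlap.

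Anln, Ect2 and Racgap1 act in cytokinesis, as the scaffold anillin, the activator of the GTPase RhoA and its partner on the central spindle. Racgap1 was at 10.9, 11.4 and 1.73 CPM with rhCYGB and at 11.6, 12.6 and 19.2 CPM with vehicle, without overlap, and had a log2 fold change of -0.85 (SE 0.64, edgeR adjusted p = 0.570). Ect2 was at 13.0, 5.40 and 0.797 CPM with rhCYGB and at 15.5, 6.67 and 12.7 CPM with vehicle, with a log2 fold change of -0.85 (SE 0.84, edgeR adjusted p = 0.628). Anln was at 6.82, 2.58 and 0.717 CPM with rhCYGB and at 9.44, 4.01 and 8.94 CPM with vehicle. The groups of Ect2 and Anln overlapped, and rhCYGB replicate 3 was again the lowest library for all 3.

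**Figure D3:**
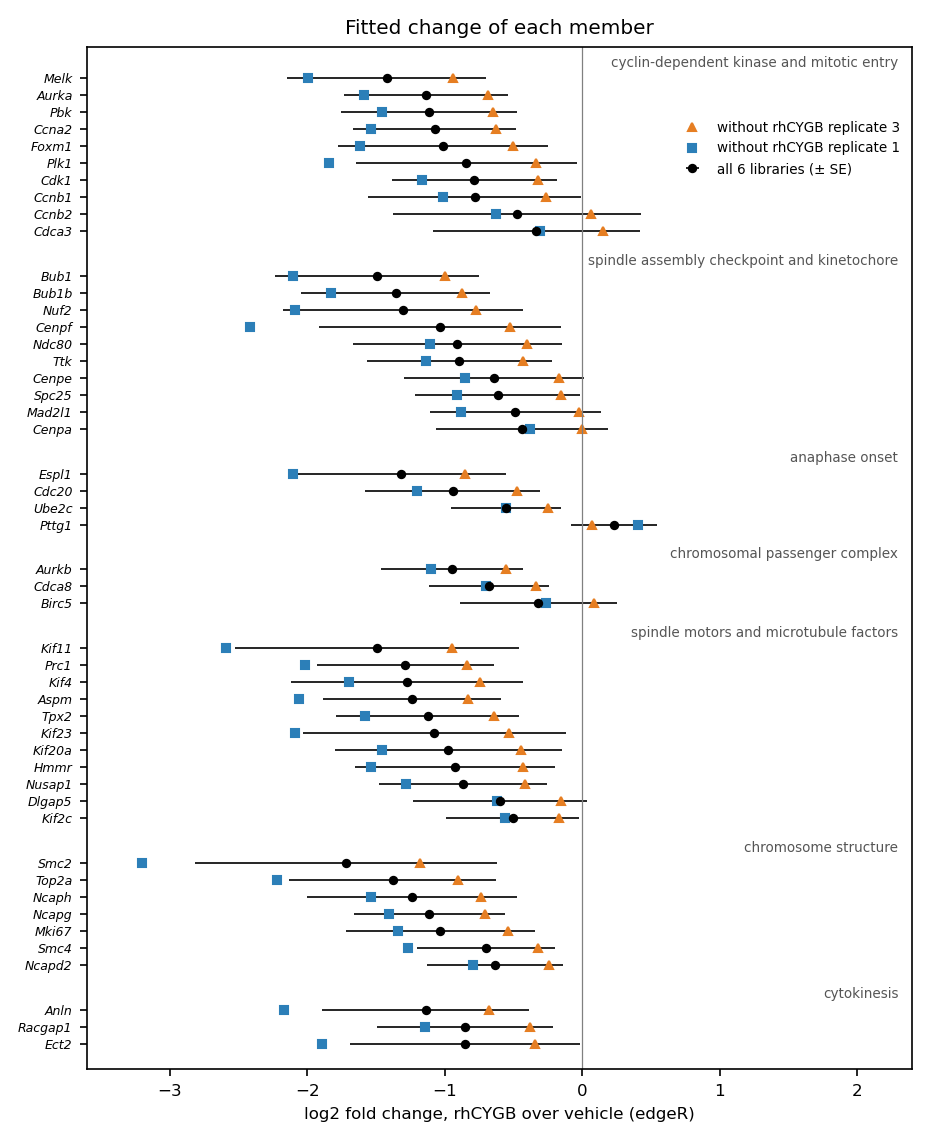
Log2 fold change of rhCYGB over vehicle by edgeR (x axis) for each member (y axis, grouped by role); circles with bars are all 6 libraries ± SE, triangles leave out rhCYGB replicate 3 and squares leave out rhCYGB replicate 1. With all libraries 47 of 48 members lie below 0; triangles lie closer to 0, with a median of -0.46, and squares farther away, with a median of -1.43.

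Leaving out single rhCYGB libraries moved the result in opposite directions. Without rhCYGB replicate 3 the median log2 fold change of the members was -0.46, against -0.02 for all genes, and 44 of 48 were negative, against 51.5% of genes tested. At an unadjusted p under 0.05, 2 of 48 were then lower by edgeR, Bub1 and Bub1b, against 1.24% of genes tested, and 0 passed the adjusted threshold. Without rhCYGB replicate 1 the median was -1.43, and 4 of 48 members passed the edgeR threshold, all lower, while 10.5% of all genes tested were called lower. These were Aspm (adjusted p = 0.0384), Anln (0.0452), Prc1 (0.0467) and Cenpf (0.0469). The members' share of calls, 4 of 48, was therefore no higher than that of genes in general. Limma-voom with sample quality weights, which gave rhCYGB replicate 1 a weight of 0.173, also called 4 of 48, all lower, against 13.9% of genes tested, and these were Aspm, Cenpf, Prc1 and Top2a.

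Transcript length moved with the members' values in libraries of both groups. Across the 48 members of a library, Spearman's rho of log2 CPM minus the vehicle mean with length was 0.14, -0.66 and -0.46 in rhCYGB replicates 1 to 3 and 0.64, -0.66 and -0.36 in vehicle replicates 1 to 3, so the relation was as strong in vehicle replicate 2 as in rhCYGB replicate 2. In rhCYGB replicate 2 the 24 shorter members (up to 2942 bases) had a median of -0.23 against the vehicle mean and the 24 longer ones (from 2948 bases) a median of -0.89. The short members Birc5, Cenpa, Cdca3 and Ccnb2 lay above the vehicle mean in rhCYGB replicate 2, at 1.38-, 1.32-, 1.47- and 1.23-fold. The longer Smc2, Kif11, Cenpf and Top2a lay at 0.197-, 0.313-, 0.317- and 0.355-fold. Not every member followed length: the short Nuf2 (2405 bases) and Plk1 (2214 bases) lay at 0.434- and 0.485-fold, and the long Cenpe (7813 bases) at 0.971-fold. In total 15 of 48 members were more than 1 log2 unit below the vehicle mean in rhCYGB replicate 2, against 15.1% of genes tested. With each library's trend on length removed, the shorter and longer members stood at -0.51 and -0.49 in rhCYGB replicate 2, and at -2.89 and -3.01 in rhCYGB replicate 3. The median log2 fold change of the list was then -0.88, with 48 of 48 members negative. In rhCYGB replicate 3 the shorter and the longer members thus both stood far below the vehicle mean, with or without the trend.

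**Figure D4:**
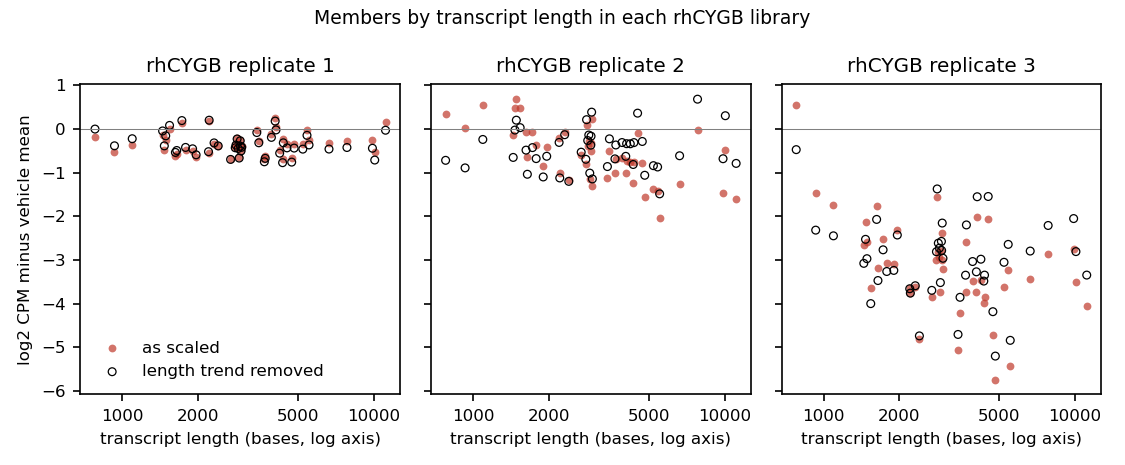
Log2 CPM minus the vehicle mean (y axis) against transcript length in bases (x axis, log scale) for the 48 members in each rhCYGB library, as scaled (filled) and with the library's length trend removed (open). In replicate 2 the filled points fall with length and the open ones do not; in replicate 3 both lie mostly between -2 and -4.

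Other genes of the cell cycle, on lists assembled by function, followed the members in part. Of 61 further mitosis genes 55 had negative log2 fold changes, median -0.83, and 0 passed the edgeR threshold. At an unadjusted edgeR p under 0.05, 2 of the 61 were lower and 0 higher, where 2.06% of all genes tested were lower. Their library medians were -0.21, -0.63 and -2.74 with rhCYGB and 0.22, -0.40 and 0.12 with vehicle. The 2 most abundant departed from that pattern in rhCYGB replicate 3. Tubb4b, a beta-tubulin, was at 174, 248 and 179 CPM with rhCYGB and at 258, 249 and 280.0 CPM with vehicle, and Ncaph2, a condensin II subunit, at 64.8, 91.3 and 68.4 CPM with rhCYGB and at 58.5, 72.8 and 75.7 CPM with vehicle. Of 38 genes of DNA replication and S phase 33 had negative values, median -0.94, with library medians of -0.44, -0.34 and -2.07 with rhCYGB and 0.78, -0.58 and -0.19 with vehicle, and 0 passed. Pcna, the sliding clamp of DNA polymerases, was at 44.4, 45.8 and 19.3 CPM with rhCYGB and at 102, 42.7 and 66.1 CPM with vehicle.

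With all 6 libraries, lists of regulators that also act outside mitosis had medians nearer to 0. Of 23 MuvB, B-Myb, E2F, Rb and NF-Y genes 19 had negative log2 fold changes, median -0.58, and rhCYGB replicate 3 had a median of -1.36. This list was not nearer to 0 without rhCYGB replicate 3, with a median of -0.55 against -0.46 for the 48 members. Its median in rhCYGB replicate 2 was -0.78, against -0.62 for the members. Rbbp4, a MuvB subunit, was at 76.4, 65.4 and 60.0 CPM with rhCYGB and at 90.5, 76.4 and 71.7 CPM with vehicle, and Nfyc, an NF-Y subunit, at 22.1, 47.2 and 60.5 CPM with rhCYGB and 19.2, 24.9 and 25.4 CPM with vehicle. The 16 G1 cyclins, their kinases and inhibitors had a median of -0.19, and -0.72 in rhCYGB replicate 3, with Ccnd1 (cyclin D1) at 187, 180 and 83.1 CPM with rhCYGB and 276, 127 and 158 CPM with vehicle, and Cdk4, its kinase, at 42.9, 74.2 and 67.9 CPM with rhCYGB and 56.2, 61.8 and 52.6 CPM with vehicle. The 16 genes of the APC/C and its cofactors, which are needed in every dividing cell but are also made in resting ones, had a median of 0.22, and 0.19 in rhCYGB replicate 3. Among them Anapc13 was at 22.3, 118 and 130 CPM with rhCYGB and 14.5, 39.5 and 33.5 CPM with vehicle, and Anapc5 at 94.2, 101 and 72.1 CPM with rhCYGB and 78.2, 91.8 and 102 CPM with vehicle. None of these 3 lists had a member past the edgeR threshold.

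**Figure D5:**
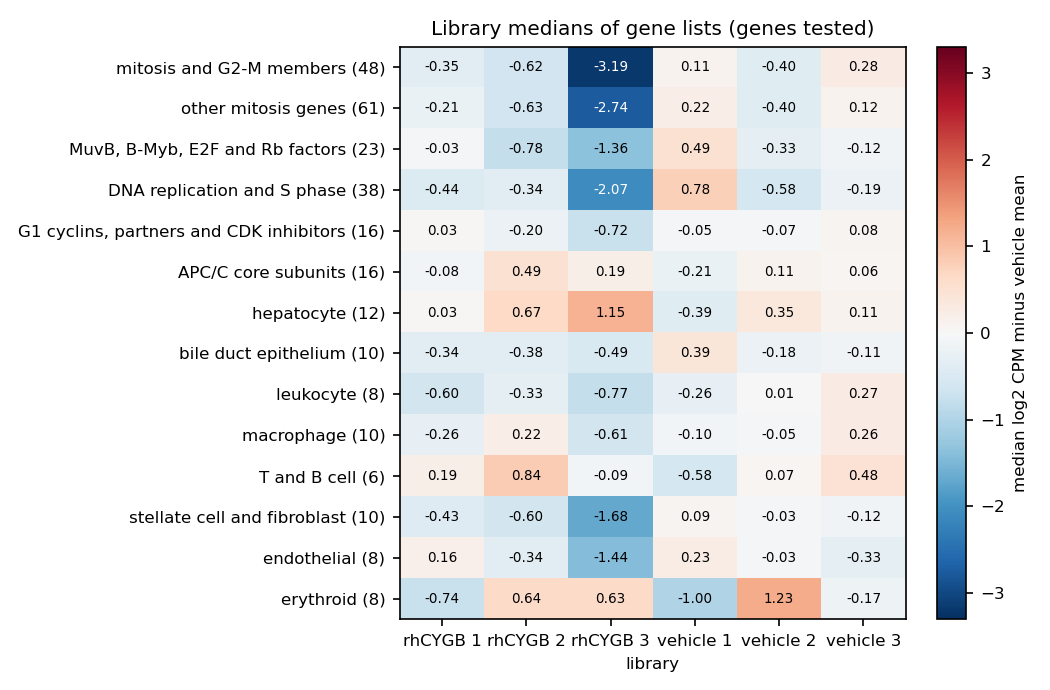
Median over the tested genes of each list (rows, number tested in brackets) of log2 CPM minus the vehicle mean, in each library (columns, rhCYGB left, vehicle right); colour shows the value printed in each cell. The mitosis lists reach -3.19 and -2.74 in rhCYGB replicate 3, against 1.15 for hepatocyte markers.

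Markers of liver cell types moved in rhCYGB replicate 3 as well, and their part in the result was not tested. All 12 hepatocyte markers were measured and 0 had a negative log2 fold change. Their summed level ran from 126367 to 243779 CPM with rhCYGB and from 88212 to 148696 CPM with vehicle. Their most abundant genes were Alb at 117953 ± 39948 CPM with rhCYGB and 63530.1 ± 15811 CPM with vehicle, and Trf at 39853 ± 9407 CPM with rhCYGB and 34979 ± 9447 CPM with vehicle (SD, n = 3 each). Summed markers of bile duct epithelium (10 genes) ran from 243 to 636 CPM with rhCYGB and from 1000.1 to 1126 CPM with vehicle. Osteopontin, Spp1, at 318 ± 215 CPM with rhCYGB and 921 ± 46.2 CPM with vehicle, made up most of that sum, while Cd24a was at 25.1 ± 3.86 CPM with rhCYGB and 35.5 ± 8.86 CPM with vehicle (SD, n = 3 each). Markers of stellate cells and fibroblasts (10 genes) ran from 207 to 619 CPM with rhCYGB and from 762 to 972 CPM with vehicle, led by Col3a1 at 155 ± 102 CPM with rhCYGB and 356 ± 41.2 CPM with vehicle and Dcn at 138 ± 77.0 CPM with rhCYGB and 249 ± 68.5 CPM with vehicle (SD, n = 3 each).

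Leukocyte markers (8 genes) ran from 233 to 304 CPM with rhCYGB and from 350.5 to 482 CPM with vehicle, led by Lcp1 at 100.4 ± 36.2 CPM with rhCYGB and 158 ± 19.6 CPM with vehicle and Laptm5 at 64.99 ± 6.95 CPM with rhCYGB and 90.5 ± 25.6 CPM with vehicle (SD, n = 3 each). Macrophage markers (10 genes) ran from 1363 to 2291 CPM with rhCYGB and from 1491 to 2456 CPM with vehicle, led by Lyz2 at 772 ± 315 CPM with rhCYGB and 985 ± 352 CPM with vehicle and Cd5l at 223 ± 102 CPM with rhCYGB and 275 ± 48.2 CPM with vehicle (SD, n = 3 each). Of these 10 genes 7 had negative log2 fold changes. Their library medians were mixed, at -0.26, 0.22 and -0.61 with rhCYGB and -0.10, -0.05 and 0.26 with vehicle. Endothelial markers (8 genes) ran from 56.1 to 139.8 CPM with rhCYGB and from 96.5 to 139 CPM with vehicle, led by Clec4g and Stab2. Markers of T and B cells, 6 of 9 of them tested, summed to at most 4.75 CPM with rhCYGB and 3.22 CPM with vehicle. Erythroid markers (8 genes) varied widely in both groups, from 160.1 to 785 CPM with rhCYGB and from 134 to 983 CPM with vehicle, and their globin genes have near-identical copies. In rhCYGB replicate 3 the library medians were -1.68 for stellate, -1.44 for endothelial, -0.77 for leukocyte and -0.49 for bile duct markers, all smaller shifts than the -3.19 of the mitosis members. In rhCYGB replicates 1 and 2 they were -0.43 and -0.60 for stellate, 0.16 and -0.34 for endothelial, -0.60 and -0.33 for leukocyte and -0.34 and -0.38 for bile duct markers. The stellate, leukocyte and bile duct shifts were thus not confined to replicate 3. No marker found in the table was at 0 in all 6 libraries.

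Several members share genomic sequence with other genes, and the counting's use of strand is not given in the sources used here. On mm10, as the deposited transcripts are placed, Cdc20 overlaps Elovl1 by 52 bases, Ccna2 overlaps Exosc9 by 863 bases, Ncapg overlaps Lcorl by 3364 bases, Nusap1 overlaps Oip5 by 208 bases and Kif20a overlaps Cdc23 by 1595 and Brd8 by 240 bases, each pair on opposite strands. Values of these members are uncertain to that extent. The gene values combine all transcripts, and 15 of 48 members had more than 1 transcript. The 972-base Birc5 transcript had 831, 1152 and 145 estimated counts with rhCYGB and 640, 885 and 1313 with vehicle, and the 3416-base one 86, 55 and 27 with rhCYGB and 241, 169 and 311 with vehicle.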

How the data were processed

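Liver mRNA of 6 mice was sequenced (3 rhCYGB, 3 vehicle). The submitters' processing notes list build mm10 and StringTie 1.3.4d, HISAT2 2.1.0 and FastQC 0.11.7. For annotation release and strand setting, the sources used here give nothing. The authors deposited estimated counts (expected counts written as whole numbers) and FPKM values, by gene and by transcript. The counts are estimates from assembler coverage, so the spread between mice, not counting error, sets the precision. Per the labels the libraries were made with a stranded poly(A) kit.

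In R 4.3.3, edgeR 4.0.16 was run on the deposited counts of all genes: filterByExpr, TMM, robust quasi-likelihood F test and Benjamini-Hochberg adjustment over 14415 genes. Standard errors were obtained by dividing the absolute log2 fold change by the root of F. TPM is FPKM divided by its library sum. DESeq2 1.42.0 and limma 3.58.1 gave alternatives. The length trend is a loess curve (span 0.4) per library on log2 transcript length. Replicate numbers follow the order of deposition and pair no mice. The members and lists were chosen with earlier results of these data known. Every member may be named; full statistics are for the 2 most abundant members (by TPM) of each role and the 3 smallest p-values, and other lists give their 2 most abundant genes, of which 1 is not reported here. Bub1b, Nuf2 and others outside this rule were described after their values were seen, and so were the genes called without rhCYGB replicate 1. Of the listed genes, 1 was not matched in the table. All value columns of the gene table were matched to a sample.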

Additional observations from a re-analysis of the deposited data

How the results depend on the processing

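No paired analysis was possible because the replicate numbers follow the order of deposition and pair no mice. Of 48 members, 0 passed the adjusted threshold under every scaling, filter and TPM setting and at an adjusted p of 0.1; 4 passed by limma-voom with sample quality weights, and leaving out 1 library gave 0 to 4. DESeq2 gave no member an adjusted p. At an unadjusted p under 0.05, all lower, the count was 0 by edgeR, 6 by DESeq2, 19 by quality-weighted limma-voom (23.1% of all genes were lower at that p), 3 by limma-voom without weights (3.14%), 17 on log2(TPM + 1) (7.18%) and 9 on log2(TPM + 0.1) (7.01%). It ran from 0 to 15 with 1 library left out, the 15 coming without rhCYGB replicate 1, where 21.2% of all genes were lower at that p. In settings chosen after seeing the data it was 4 with the length trend removed and rhCYGB replicate 3 left out (2.01%), and 11 with that trend removed and rhCYGB replicate 1 left out (18.3%). Members whose groups did not overlap numbered 13 (13.4% of all genes in either direction, 7.38% lower), 7 on either TPM scale (14% and 12.7%), and 13 to 32 with 1 library left out. They numbered 31 without rhCYGB replicate 1 (64.3% and 34.5%), 30 of them lower, and 32 without vehicle replicate 2, all lower (21.3% and 11.9%). With the length trend removed and rhCYGB replicate 1 left out they numbered 28, all lower (61.3% and 30.4%). The counts of 7, 31 and 28 were thus close to the share of all genes without overlap in either direction. Counting lower genes only, the members stood at 14.6%, 62.5% and 58.3%, against 12.7%, 34.5% and 30.4% of all genes, so only the first was close.

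The median of the list was below that of all genes in every setting, with differences from -1.303 to -0.42 log2 units. The list median ran from -1.43 to -0.46 with 1 library left out. Scaling moved the median of all genes to -0.18 (upper-quartile factors), -0.56 (library totals) and -0.51 (log2(TPM + 1)), and the list median was then -1.05, -1.33 and -1.33. Pttg1 was negative on log2(TPM + 1) (-0.47), log2(TPM + 0.1) (-0.48), with library totals (-0.34), with the length trend removed (-0.37) and with that trend removed without rhCYGB replicate 3 (-0.32) or 1 (-0.58). With 1 library left out, Cdca3 ran from -1.14 to 0.16, Ccnb2 from -1.11 to 0.093 and Birc5 from -0.98 to 0.087; all 3 were positive without rhCYGB replicate 3 and without vehicle replicate 3. The cause of these changes was not tested.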

Other observations

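Among the 61 further mitosis genes Hjurp, the chaperone that loads Cenpa at centromeres, was chosen after its values were seen. It was at 26.0, 4.45 and 0.239 CPM with rhCYGB and at 65.5, 20.5 and 79.9 CPM with vehicle, with a log2 fold change of -2.43 that did not pass the edgeR threshold. In rhCYGB replicate 2, where Hjurp was low, Cenpa stood at 1.32-fold its vehicle mean in CPM. With the length trend removed, Cenpa stood there at -0.02 log2 units from the vehicle mean. In TPM it was at 15.6 there, against a vehicle mean of 23.0.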
